A study of Mus musculus with 2 samples.

Results

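The nuclear genes for respiratory complexes II to V were read in bone marrow-derived macrophages (BMDMs) with and without IL-4. A gene belonged to the set when the RefSeq accession of its probe carried a mouse symbol that starts with Sdha, Sdhb, Sdhc, Sdhd, Uqcr, Cyc1, Cox4, Cox5, Cox6, Cox7, Cox8 or Atp5, with pseudogenes left out. This rule found 52 genes among the 32448 genes and unnamed identifiers on the array, 8 for complex II, 9 for complex III, 18 for complex IV and 17 for complex V. BMDMs came from male Crif1 f/f mice aged 8 weeks and were grown with M-CSF. These mice carry a floxed Crif1 gene, and neither the labels nor the array methods name a Cre for the cells on the arrays. One group was untreated and the other received IL-4 for 18 h, with 1 single-colour array per group, so no difference below has a replicate check, no p-value is given, and precision is limited by how few arrays there are.

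Complex II, succinate dehydrogenase, passes electrons from succinate of the TCA cycle to ubiquinone. Complex III, the cytochrome bc1 complex, moves them to cytochrome c and complex IV, cytochrome c oxidase, moves them to oxygen, and both help build the proton gradient that complex V, the ATP synthase, uses to make ATP. IL-4 drives macrophages toward the M2-like state, which is known for its reliance on oxidative metabolism. The subunits encoded by mitochondrial DNA, such as mt-Co1, mt-Cytb and mt-Atp6, were looked for by symbol and matched no probe here, so only the nuclear part of each complex is described.

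The promoters of respiratory genes are known for sites of NRF-1 and of the ETS factor GABP, and the upstream sequences of 3 members are shown to place these letters beside the expression values. RefSeq promoters (GRCm38.p6) were matched by symbol for 40 of the 52 members. The core letters GCATGCGC of an NRF-1 site, on either strand, lay within 250 bases before and 50 bases after the start of 7 of the 40 genes, a share of 17.5%, against 3.05% of all 27025 genes with a promoter and 3.94% of the protein-coding ones. The ETS core CCGGAAG lay in 16 of the 40, a share of 40.0%, against 9.93% of all genes and 12.9% of the protein-coding ones. A STAT6 pattern, TTCNNNNGAA, lay in 2 of the 40, Cox6b1 and Uqcrfs1, or 5.0% against 8.01% of all genes. These matches are letters in a window and not binding sites, and genes with the ETS core had a median log2 difference of 0.07 after IL-4 against 0.12 for those without it, whereas the 7 genes with the NRF-1 core had 0.14 against 0.07 for the 31 measured genes without it. The lines below give 250 bases upstream of the start for Sdhb, the iron-sulfur subunit of complex II, at chr4:140961021-140961270 on the plus strand, Cox6a1, the widely expressed form of a complex IV subunit, at chr5:115348959-115349208 on the minus strand, and Atp5pb, a stalk subunit with the highest difference in complex V, at chr3:105959264-105959513 on the minus strand. Capitals mark the NRF-1 core or its complement, which overlap in the 10-letter run of Cox6a1, and the complement of the ETS core near the end of the Cox6a1 line. The ETS core of Sdhb lies after its start and is not printed, and Atp5pb holds neither core.
Sdhb: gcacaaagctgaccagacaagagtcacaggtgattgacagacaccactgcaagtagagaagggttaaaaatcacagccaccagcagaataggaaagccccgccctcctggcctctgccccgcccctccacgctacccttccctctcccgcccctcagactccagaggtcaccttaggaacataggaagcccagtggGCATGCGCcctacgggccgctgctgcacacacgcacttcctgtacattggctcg
Cox6a1: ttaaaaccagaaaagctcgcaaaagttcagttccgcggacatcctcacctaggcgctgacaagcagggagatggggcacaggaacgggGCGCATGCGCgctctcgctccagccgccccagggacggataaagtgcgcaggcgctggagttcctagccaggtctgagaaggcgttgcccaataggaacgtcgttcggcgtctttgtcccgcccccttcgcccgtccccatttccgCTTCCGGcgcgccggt
Atp5pb: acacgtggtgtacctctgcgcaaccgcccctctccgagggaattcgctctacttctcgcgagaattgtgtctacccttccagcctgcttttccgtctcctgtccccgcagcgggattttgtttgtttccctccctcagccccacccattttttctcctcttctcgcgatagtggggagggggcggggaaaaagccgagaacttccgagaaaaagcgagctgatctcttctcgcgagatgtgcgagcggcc

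Levels are the background-subtracted intensity of the scanner software, and differences are on the log2 scale, IL-4 minus untreated, relative to the 75th percentile of the same array (9.84 untreated and 9.94 with IL-4). Where a gene had more than 1 probe, the brightest one stands for it. The labelled treatment showed in the M2 marker Arg1, whose intensity was 84.9 untreated and 19688 with IL-4. Of 6 macrophage markers on the array, all were well above background on both arrays, and their differences ranged from -1.23 for Fcgr1 to 0.17 for Adgre1, the gene for F4/80. None of the 4 B cell and 4 erythroid markers was flagged as well above background, whereas all 5 fibroblast markers were on both, among them Col1a2 at 233342 untreated and 234332 with IL-4, with differences from -0.34 to 0.51. All 4 neutrophil markers found were well above background on both arrays, with differences from -0.23 to 0.30, as were 3 of 4 eosinophil markers, from -0.02 to 0.37, and 2 of 4 T cell markers, from -0.31 to -0.002. The part of other cells in the values below was not tested.

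Most respiratory genes had a slightly higher signal after IL-4, and complex III stood highest of the 4 complexes. Of the 52 members 49 were well above background on both arrays, and Cox7b2, Cox8b and Cox8c, isoforms known from germ cells or from muscle and brown fat, were so on neither array and have no fold. The median difference of the 49 was 0.11, and 36 of them, or 73.5%, were above 0, where 47.4% of all 17242 genes measured on both arrays were above 0 and their median was -0.01. That share rose with signal, from 31.7% of all genes below a scaled log2 signal of -4 to 65.4% between 4 and 6. In this brighter band 18 of 24 members were above 0. The median was 0.10 for complex II (8 genes), 0.18 for complex III (9 genes), 0.07 for complex IV (15 genes) and 0.11 for complex V (17 genes). The quartiles of complexes II to V, in that order, overlapped, since they ran from -0.03 to 0.14, from 0.12 to 0.21, from -0.004 to 0.16 and from -0.03 to 0.14. Complex III had the highest median of the 4 under each of the 11 other ways of scaling or reading the arrays. The medians of all 4 stayed above 0 in each. Median, spike-in and detected-probe percentile scaling and no scaling shift all genes alike, so they cannot change the order of the complexes. Keeping flagged spots or using the authors' processed values gave nearly the reported medians. The order could change with quantile normalization, cyclic loess, normexp and the other probe rules. Complex III stood at 0.088 with quantile normalization, next to complex II at 0.051. With normexp it stood at 0.16, next to complex V at 0.14. Scaling to the median or to the spike-in RNAs moved the median of all genes up by 0.21 and 0.34. The members stood 0.12 above all genes with either of them, as reported, which a constant shift leaves unchanged by construction. This gap was 0.052 with quantile normalization and 0.055 with cyclic loess. No difference between complexes was tested.

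These differences were small. A log2 difference of 0.32 in size, 5 parts to 4, was taken as a limit. Only Cox6a2 and Atp5pb lay above it, 2 of 49 members where 10.9% of all genes did, and only Sdhaf3 lay below 0 by as much, where 15.5% of all genes did. No member reached a 2-fold difference up or down, where 2.11% and 1.57% of all genes did. The count above the limit depended on the scaling. It was 25 with median scaling and 37 with spike-in scaling, where 29.8% and 50.4% of all genes lay above it. Probes of similar signal printed in up to 10 spots gave a spot SD between 0.04 and 0.12 for the difference of a member, and by this measure 25 members lay above 0 by over 2 spot SDs and 5 lay below by as much, where 26.0% and 27.9% of all genes did. For the brightest members, such as Cox6a1, Atp5b and Cox8a, the spot SD came from the 10 nearest such probes, which need not be of similar signal. The scanner software put its own error at about 10% of the intensity of each spot, which combines to between 0.20 and 0.23 on the log2 scale, and 10 of the 49 differences were larger than that, 8 above 0 and 2 below, where 17.5% and 22.4% of all genes were. Neither error covers the spread between cultures.

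**Figure D1:**
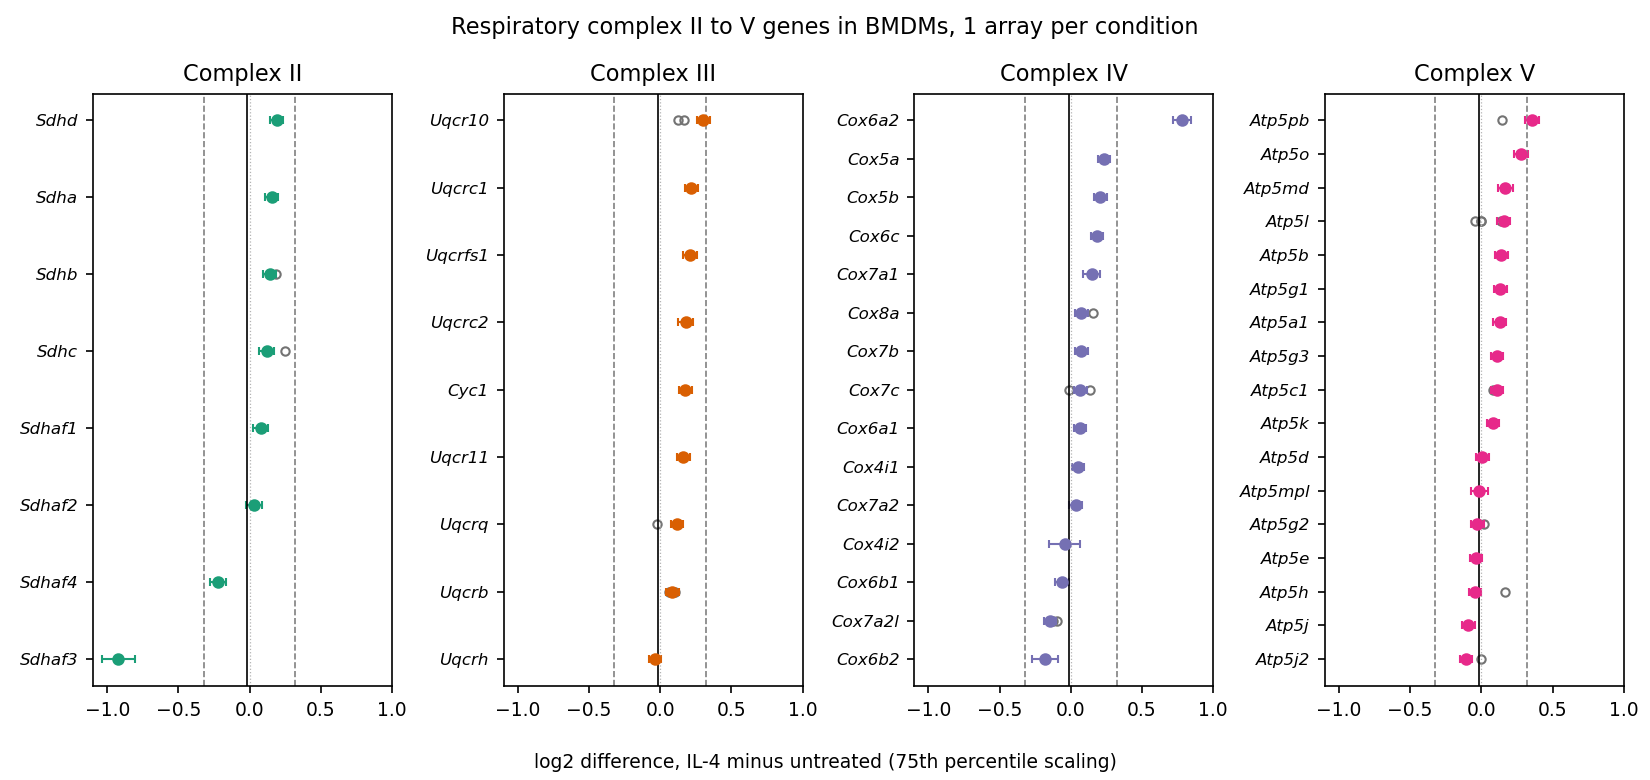
Log2 difference in signal, IL-4 minus untreated, for the 49 measured members, by complex. Filled points are the brightest probe with the spot SD as the bar, open points are other probes of the gene, the black line is the median of all genes (-0.01) and the dashed lines mark the limit of 0.32 on either side. Most points sit between the black line and the right dashed line, with Cox6a2 far to the right and Sdhaf3 far to the left.

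In complex II the subunits lay together and the assembly factors did not. All 4 subunits were higher after IL-4, as were 60.0% of all genes with a scaled log2 signal from 2 to 4 and 65.4% from 4 to 6. Sdha, the flavoprotein that oxidises succinate, had an intensity of 11018 untreated and 13156 with IL-4, a difference of 0.16 with a spot SD of 0.05. Sdhd, a membrane anchor, had 11504 and 14075, a difference of 0.19. Both probes of each of the other subunits pointed the same way, with 0.14 and 0.18 for Sdhb, and with 0.12 and 0.25 for the anchor Sdhc. Among the 4 assembly factors, Sdhaf1 and Sdhaf2 lay at 0.08 and 0.03, within 2 spot SDs of 0, and Sdhaf4, which acts on Sdha during assembly, had 2035 untreated and 1867 with IL-4, a difference of -0.22. Sdhaf3, which helps mature the iron-sulfur subunit, had 196 untreated and 111 with IL-4, 1.90-fold lower, a difference of -0.92 with a spot SD of 0.12. This single probe was dim, and the 3635 genes with a scaled log2 signal from -4 to -2 had a median of -0.11 and a lower quartile of -0.36. The difference of Sdhaf3 lay between -0.98 and -0.58 over all settings, the smallest with spike-in scaling.

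With all members counted, complex III was the most even of the 4, with quartiles from 0.12 to 0.21. The 4 subunits of complex II without its assembly factors lay closer together. Their quartiles ran from 0.14 to 0.17 around a median of 0.15. The core subunits Uqcrc1, Uqcrc2, Uqcrfs1, the Rieske iron-sulfur protein, and Cyc1, cytochrome c1, lay between 0.18 and 0.22. Uqcrc1 had an intensity of 6679 untreated and 8335 with IL-4. Uqcrfs1 had 7067 and 8744, and Cyc1, which hands electrons to cytochrome c, had 12145 and 14714. Uqcrc2 was the only member with a spot error of its own, because its probe was printed in 10 spots. Their intensities ran from 7834 to 8381 on the untreated array and from 9417 to 10088 on the IL-4 array, so the spots of the 2 arrays did not overlap. The scaled difference of the 10 spots was 0.18 ± 0.05 (SD, n = 10 spots), from 0.12 to 0.27. These spots are technical repeats of 1 sample per group. Of the small subunits, Uqcr10 had 16756 untreated and 22161 with IL-4 at its brightest probe, a difference of 0.30, with 0.17 and 0.13 at its other probes. Uqcr11 lay at 0.16, Uqcrq at 0.12 with -0.02 at its second probe, and Uqcrb at 0.09. Uqcrh, the hinge protein, was the exception at -0.04 on both of its probes.

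**Figure D2:**
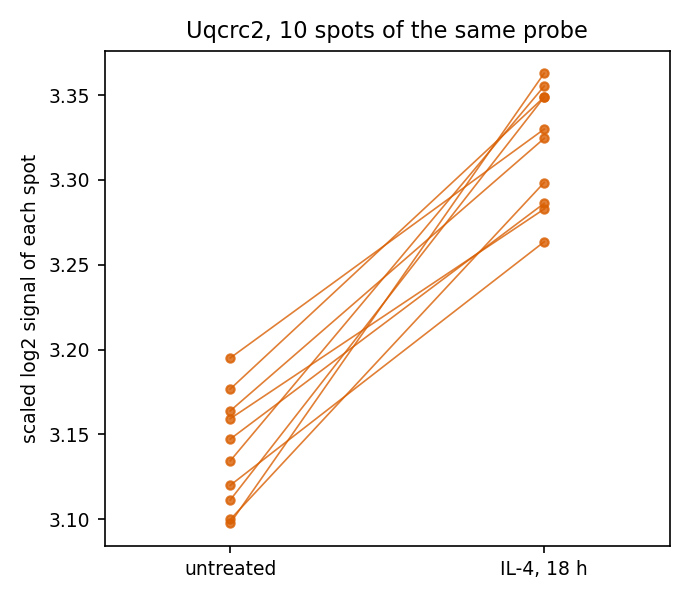
Scaled log2 signal of each of the 10 spots of the Uqcrc2 probe before and after IL-4, with lines joining the same spot position. All 10 lines go up, by 0.12 to 0.27, which shows spot error within 1 sample per group and not the spread between cultures.

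In complex IV the broadly expressed subunits moved little and 1 tissue isoform stood apart. Of the 10 broadly expressed nuclear subunits 9 lay above 0, with a median of 0.07. In the bands of signal from 2 to 4, from 4 to 6 and above 6, 60.0%, 65.4% and 56.7% of all genes lay above 0. Their medians in these bands were 0.05, 0.06 and 0.01. The largest were Cox5a, which had 49225 untreated and 61982 with IL-4, a difference of 0.23, Cox5b at 0.21 and Cox6c at 0.18. Cox4i1, Cox6a1, Cox7a2, Cox7b, Cox7c and Cox8a lay between 0.04 and 0.07 at their brightest probes, each within 2 spot SDs of 0. The second probes of Cox7c and Cox8a lay higher, at 0.14 and 0.15, and another, dim probe of Cox7c lay at -0.01. Cox6b1, which sits at the contact of the dimer, lay at -0.06. Cox6a2, the form of subunit 6a known from heart and skeletal muscle, had 380 untreated and 699 with IL-4, 1.72-fold higher, a difference of 0.78 with a spot SD of 0.06. This value rests on a single probe in 1 spot, dimmer than most members. The 3976 genes with a scaled log2 signal from -2 to 0 had a median of -0.04 and an upper quartile of 0.12. The difference of Cox6a2 was the highest of the 49 measured members and smaller in size than that of Sdhaf3. Cox6a2 stayed between 0.67 and 1.12 over all settings. Its widely expressed counterpart Cox6a1 had 150322 and 168282, a difference of 0.06. Of the 4 muscle markers Ckm, Myh4 and Tnnt3 had no signal well above background, and Acta1 had 4280 untreated and 3692 with IL-4, a difference of -0.31. The other isoforms with signal on both arrays were Cox7a1 at 0.15, Cox4i2 at -0.04 and Cox6b2 at -0.18. Cox7a2l, known as a factor of supercomplexes of complexes III and IV, was lower at all 3 of its probes, at -0.15, -0.09 and -0.13. With median or spike-in scaling its sign changed, to as high as 0.19. The arrays do not measure supercomplexes.

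Complex V was the most mixed, with 11 of 17 members, or 64.7%, above 0. Of all genes 47.4% were above 0, and 65.4% of those with a scaled log2 signal between 4 and 6. In the catalytic F1 part, Atp5b lay at 0.14, Atp5a1 at 0.13, Atp5c1 at 0.11, Atp5d at 0.01 and Atp5e at -0.04. Of the 3 genes that encode the same c subunit of the membrane ring, Atp5g1 and Atp5g3 lay at 0.13 and 0.11, and Atp5g2 lay at -0.03 and 0.02 at its 2 probes. The stalk and membrane subunits held both ends of the range. Atp5pb had 6786 untreated and 9305 with IL-4 at its brighter probe, 1.28-fold higher, a difference of 0.36, and 5577 and 6597 at its other probe, a difference of 0.14. Over all settings its value lay between 0.14 and 0.70. Atp5o, the subunit that confers oligomycin sensitivity, had 4920 and 6397, a difference of 0.28. Atp5md and Atp5k lay at 0.17 and 0.08. Atp5l lay at 0.16 at its brightest probe and between -0.05 and 0.14 at its other 4 probes. Atp5j2 had 34036 and 33822, a difference of -0.11, Atp5j lay at -0.09, Atp5mpl at -0.01, and Atp5h at -0.04 with 0.17 at its dimmer probe. Over all complexes, the probes of 11 of the 16 members with several measured probes shared 1 sign, and the widest gap between probes of 1 gene was 0.21. Processed pseudogenes of several of these genes exist, and the files hold no probe sequences, so how far a probe is shared with a copy was not tested.

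Brightness moved with the result. Among all genes the median difference was -0.19 at a scaled log2 signal below -4 and 0.06 between 4 and 6, where 24 of the 49 members lay, and those 24 had a median of 0.11. Between 2 and 4 all 2851 genes had a median of 0.05 and the 13 members 0.18. Above 6 the medians were 0.01 for all 471 genes and 0.07 for the 4 members. The share of all genes above 0 was 60.0% between 2 and 4, 65.4% between 4 and 6 and 56.7% above 6. Of the members, 11 of 13, 18 of 24 and 3 of 4 were above 0 in these bands. The gap between the median of the members and that of all genes was 0.12 as reported, 0.055 with cyclic loess, which removes a trend with signal, and 0.052 with quantile normalization. The part of this trend in the difference between members and all genes was not tested further.

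**Figure D3:**
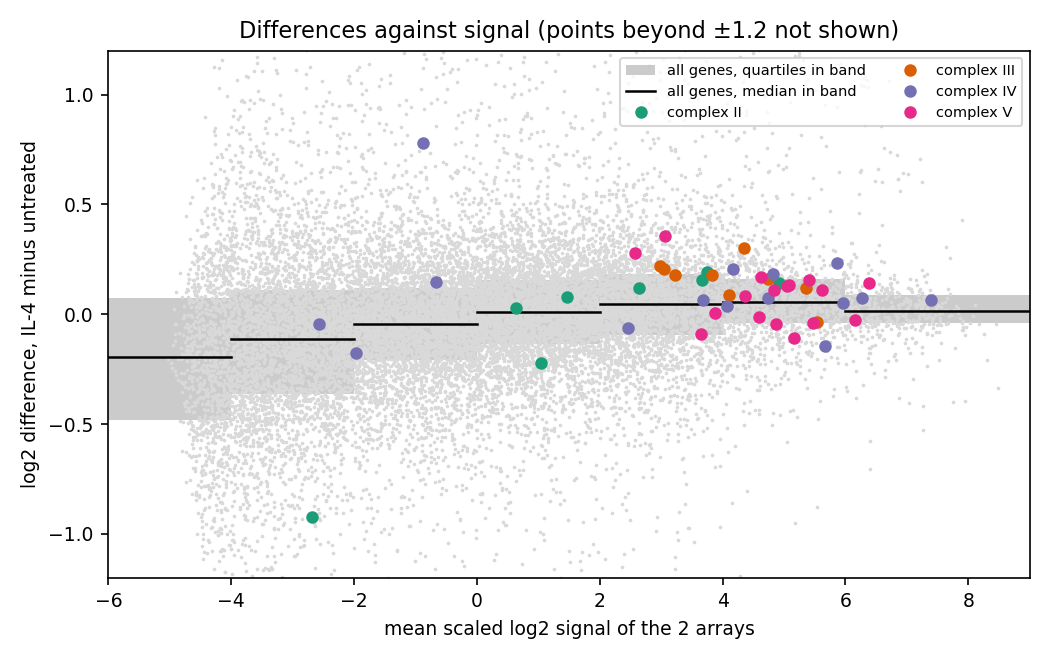
Log2 difference, IL-4 minus untreated, against the mean scaled log2 signal of the 2 arrays. Grey points are all measured genes within 1.2 of 0, black lines and grey boxes are their median and quartiles in each band of signal, and coloured points are the members by complex. The black lines go from -0.19 at the dim end to 0.06 between 4 and 6, where many members sit.

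The rest of the respiratory apparatus lay in the same range. The 37 genes named Nduf were all well above background on both arrays, and they encode complex I subunits apart from Ndufa4, now placed in complex IV, and its relative Ndufa4l2. Ndufa4 and Ndufa4l2 lay at -0.04 and -0.03. The other 35 had a median of 0.08, and 30 of them, or 85.7%, lay above 0. All 35 had a scaled log2 signal between 2 and 6. Of all genes 60.0% lay above 0 between 2 and 4 and 65.4% between 4 and 6, with medians of 0.05 and 0.06. None of the 35 was past the limit of 0.32, where 10.9% of all genes lay above it and 15.5% below 0 by as much. Cycs, cytochrome c, which carries electrons from complex III to IV, had 19095 untreated and 25167 with IL-4, a difference of 0.30, and the testis form Cyct had no signal well above background. Of 27 measured assembly factors of complexes III to V, 22 lay above 0, or 81.5%, where 47.4% of all genes did. Their median was 0.09. At the brightest probes only Cox10, which farnesylates the heme of complex IV, was past the limit. It had 153 and 104, a difference of -0.66 at a dim probe. Another probe of Sco1 lay at 0.84, against -0.12 at its brightest, which was also dim. Another probe of Coa7 lay at 0.48, against 0.30 at its brightest. All 6 measured carriers and channels for ATP and phosphate lay above 0, with a median of 0.19, at signals between 2 and 6 as well. None was past the limit, and the nearest was Slc25a5, an ADP/ATP carrier, with 10753 and 14401, a difference that rounds to 0.32 and lies just under it.

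Regulators of these genes were read from their own probes. Esrra, the estrogen-related receptor that acts on respiratory genes, had 5666 untreated and 7975 with IL-4, 1.31-fold higher, and Pprc1, a coactivator of the PGC-1 family, had 185 and 266, 1.34-fold higher. Ppargc1b, which encodes PGC-1β, was well above background with IL-4 alone, with 12.3 untreated and 57.5 with IL-4 at a single dim probe. Its approximate bound was 1.84-fold higher, a log2 difference of 0.88 with a spot SD of 0.39. Ppargc1a was well above background on neither array. The other 8 measured regulators lay between -0.17 for Gabpa and 0.19 for Tfb2m, with Nrf1 at 0.07 and Tfam at 0.05. The probes of Nrf1, of Gabpa and of Gabpb1 differed in sign among themselves.

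**Figure D4:**
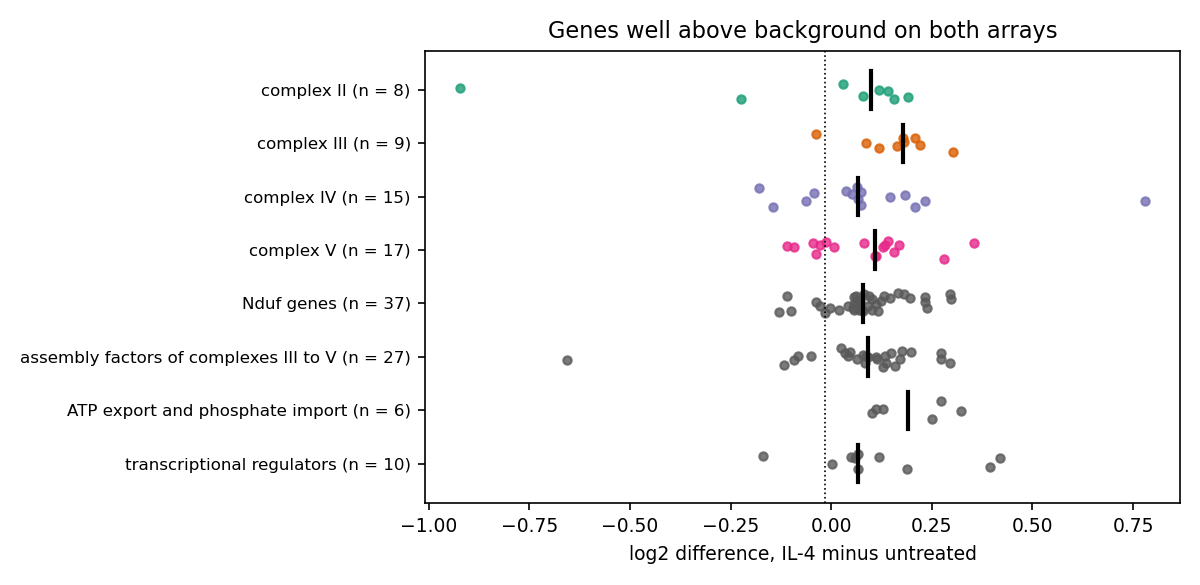
Log2 difference, IL-4 minus untreated, of the members by complex and of 4 related gene lists, for the measured genes of each. Each point is a gene, the bar is the median of the list and the dotted line is the median of all genes (-0.01). The medians of all 8 rows lie to the right of that line, from 0.07 to 0.19, and vertical scatter within a row has no meaning.

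**Figure D5:**
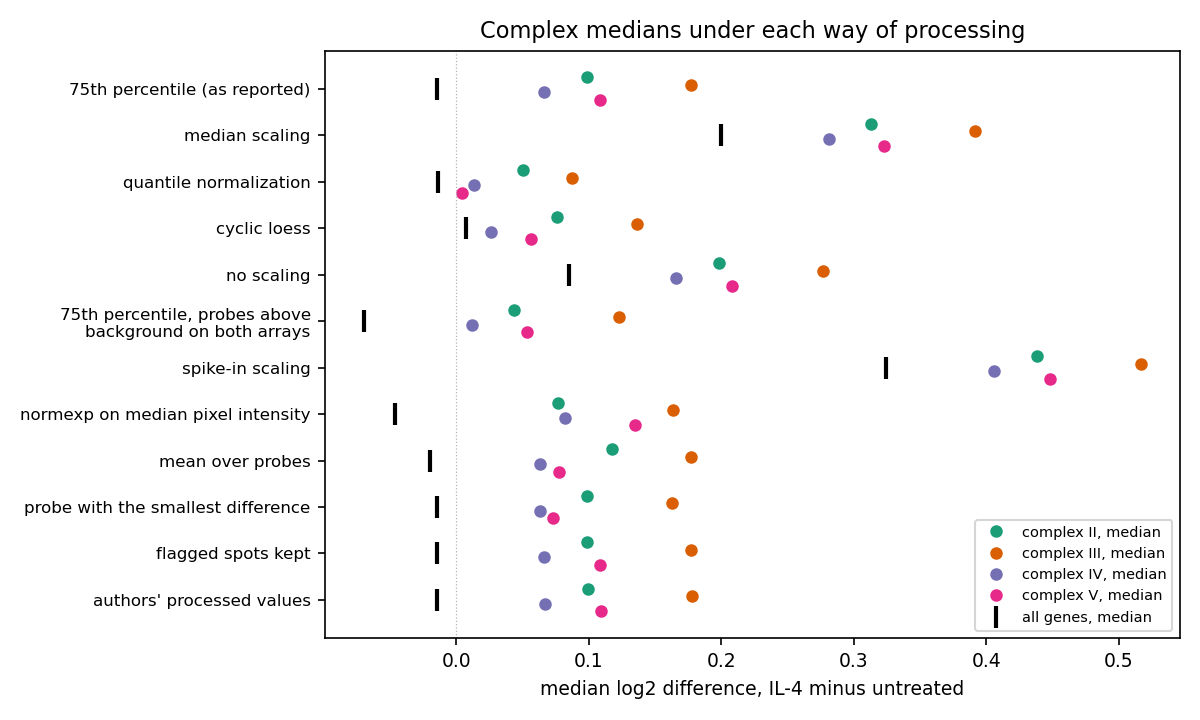
Median log2 difference of each complex (coloured points) and of all genes (black bars) under the reported setting and 11 others. Scalings by 1 constant per array move all the medians together, from -0.07 to 0.32 for all genes, and cannot change the order of the complexes. Quantile normalization and cyclic loess bring the complexes closer to all genes. Complex III is the rightmost point in every row.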

How the data were processed

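RNA of untreated BMDMs and of BMDMs given IL-4 for 18 h was labelled with Cy3, 1 array per condition on the same slide. Each deposited intensity is the Feature Extraction 10.10.1.1 signal of a spot, background-subtracted and detrended within the array by that software. The authors also deposited processed log2 values of the same probes, with no method given in the sources used here, and their level is unknown. For the members their differences between the arrays lay within 0.00057 of those from the scanner files.

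Control and outlier spots were dropped, log2 values were averaged per probe, and each array was scaled by subtraction of its 75th percentile. A probe was well above background when over 50% of its spots carried that flag. RefSeq accessions gave symbols to 27229 of 39424 probes. The array design is annotated on mm9, so no probe coordinates are given. The spot SD of a gene is the median over probes printed in 8 to 10 usable spots within 1 log2 unit of it, or the 10 nearest. A gene well above background on 1 array has an approximate bound, from the lowest signal with that flag on the other array. The members and lists were chosen with earlier results of these data known. Every member is accounted for, and genes of other lists are named where past a log2 difference of 0.32, for their role, or as controls. No test between conditions was run. The scaling and counting were tested on simulated data. Alternatives were other scalings, normexp with an offset of 50 on the median pixel intensity, other probe rules, other filters and the authors' processed log2 values. Python 3.11.15, numpy 2.4.6, pandas 2.3.3, matplotlib 3.10.9, R 4.3.3 and limma 3.58.1 were used.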

Additional observations from a re-analysis of the deposited data

How the results depend on the processing

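No paired analysis was possible because there is only 1 array for either condition, and for the same reason no replicate could be left out. The median of all genes, at -0.01, was 0.20 when scaled to the median, 0.085 unscaled, -0.070 when the percentile was taken over detected probes alone and 0.32 with spike-in scaling. With these 4 settings in that order the median of the members, at 0.11, was 0.32, 0.21, 0.054 and 0.45, complex II, at 0.10, was 0.31, 0.20, 0.044 and 0.44, complex III, at 0.18, was 0.39, 0.28, 0.12 and 0.52, complex IV, at 0.07, was 0.28, 0.17, 0.012 and 0.41, and complex V, at 0.11, was 0.32, 0.21, 0.054 and 0.45. Members above the limit of 0.32, 2 as reported, numbered 25, 5, 1 and 37, where 29.8%, 16.9%, 8.76% and 50.4% of all genes lay above it. These settings shift all genes alike. With quantile normalization the medians were 0.038 for the members, 0.051, 0.088, 0.014 and 0.0039 for complexes II to V, and 1 member was above the limit, where 12.9% of all genes were, and with cyclic loess they were 0.062 for the members, 0.076, 0.14, 0.026 and 0.056 for the complexes. The cause of these changes was not tested. The count of 2 was 1 with the mean over probes, where 10.6% of all genes lay above the limit. It was 1 with the probe of smallest difference, where 9.95% did. Structural subunits alone put complex II at 0.15, since its assembly factors are left out. With spike-in scaling, which put the median of all genes at 0.32, Cox6a2 was at least 2-fold higher, at a difference of 1.12. The 11 settings that apply to single members gave 539 values, of which 261 stayed within the spot SD. A difference above 0 in every setting was held by 25 of 49 members (5 of 8 in complex II, 6 of 9 in III, 6 of 15 in IV and 8 of 17 in V), and by 29.9% of all genes, and 1 member, Sdhaf3, stayed below 0, as did 14.2% of all genes. Members above 0, 36 as reported, ranged from 29 with quantile normalization, where 47.2% of all genes were, to 48 with spike-in scaling, where 85.5% were.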
